A study of Saccharomyces cerevisiae with 8 samples.

Results

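Replication origins were examined in chromatin accessibility data from yeast. The set holds 352 of the 360 origin features in the RefSeq annotation of *Saccharomyces cerevisiae* (R64, the assembly known as sacCer3), namely all autonomously replicating sequences (ARS) on the 16 nuclear chromosomes. The other 8 features are mitochondrial. The assay was ATAC-seq, which reads exposed DNA through the insertions of a transposase, and each library came with a list of called peaks. An origin was counted as having a peak where a called peak overlapped it by at least 1 bp. No accessibility value was used to choose the origins.

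The study asked whether a long human sequence and its reversed copy are accessible in yeast. The strains derived from BY4741, a haploid laboratory strain that lacks *HIS3*, *LEU2*, *MET15* and *URA3*. There were 4 strains with 2 independent clones each, giving 8 libraries. 2 strains carried the locus as an episome on a yeast shuttle vector, either HPRT1R (the human *HPRT1* region with its base order reversed, not complemented) or HPRT1, and were grown in SC-Leu. The other 2 strains carried HPRT1R or HPRT1 integrated on chromosome XI, between homology arms at 146136 to 146350 and at 146508 to 146829, and were grown in YPD. Context and medium changed together and cannot be told apart. All origins described here are those of the host chromosomes. Cultures were in mid-log phase and not synchronised, so an origin open in a few cells and an origin slightly open in all cells cannot be told apart.

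In budding yeast, an origin is a short AT-rich stretch that holds a match to the ARS consensus sequence, where the six-subunit origin recognition complex (ORC) binds. ORC, Cdc6 and Cdt1 load the Mcm2-7 helicase in G1, and a subset of loaded origins fires in S phase, early or late according to position. The bound stretch is known to be free of nucleosomes, with positioned nucleosomes on both sides. Most origins lie between genes, a space they share with promoters and terminators.

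The annotated origins were 51 to 1324 bp long, with a median of 241 bp, and there were 11 to 41 per chromosome. Their median GC content was 29.8%, against 38.3% in the genome. An exact match to the 11-base ARS consensus, searched on both strands, was found in 124 origins (35.2%), whereas genomic windows of the same lengths held one in 1.81% of cases on average. The best match had 1 mismatch in 176 origins, 2 in 48 and 3 in 4. Of all origins, 324 (92.0%) lay mostly between genes and 211 entirely so. Flanking genes were in tandem at 157 origins, convergent at 113 and divergent at 55, while 19 origins lay inside genes and 8 were terminal, beyond the last gene of a chromosome arm. By position, 40 origins were within 20 kb of a chromosome end, 24 had at least 50% of their 36-base words repeated elsewhere in the genome, and 14 had a tRNA gene within 300 bp of their middle.

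The sequences of 12 origins are given as examples. The first 5 were taken from those with a peak in at least 7 of the 8 libraries, and the last 7 are well-known origins, or one near the integration site, among the 303 with a peak in none. Capitals mark the best match to the ARS consensus, and all are written 5′ to 3′ on the strand of that match, from RefSeq R64. *ARS503* (chrV:6378-6453, minus strand), *ARS815* (chrVIII:297060-297179, plus) and *ARS1409* (chrXIV:96247-96463, minus) are whole features. For the longer *ARS1016* (chrX:454949-455148, plus) and *ARS810* (chrVIII:212819-213018, plus), 200 bases around the median peak summit are given, and the best match of *ARS1016* falls outside this stretch. The origins without a peak are *ARS1* (chrIV:462567-462622, minus), *ARS305* (chrIII:39508-39595, minus), *ARS607* (chrVI:199395-199505, plus), *ARS603* (chrVI:68759-68861, minus), *ARS317* (chrIII:292638-292694, minus), *ARS209* (chrII:254998-255083, minus) and *ARS1106* (chrXI:153020-153135, minus), all whole.
ARS503: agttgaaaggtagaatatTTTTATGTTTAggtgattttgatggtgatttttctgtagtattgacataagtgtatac
ARS815: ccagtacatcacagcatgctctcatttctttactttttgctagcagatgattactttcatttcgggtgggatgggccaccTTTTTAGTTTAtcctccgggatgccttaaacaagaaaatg
ARS1409: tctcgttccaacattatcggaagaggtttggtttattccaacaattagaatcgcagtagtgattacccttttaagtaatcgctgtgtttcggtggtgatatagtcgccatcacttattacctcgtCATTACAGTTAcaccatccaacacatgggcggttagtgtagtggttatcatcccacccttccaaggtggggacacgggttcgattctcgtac
ARS1016: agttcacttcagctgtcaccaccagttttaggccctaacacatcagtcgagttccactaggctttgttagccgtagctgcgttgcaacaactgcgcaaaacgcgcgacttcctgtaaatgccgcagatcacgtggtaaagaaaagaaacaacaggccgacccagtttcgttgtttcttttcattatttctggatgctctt
ARS810: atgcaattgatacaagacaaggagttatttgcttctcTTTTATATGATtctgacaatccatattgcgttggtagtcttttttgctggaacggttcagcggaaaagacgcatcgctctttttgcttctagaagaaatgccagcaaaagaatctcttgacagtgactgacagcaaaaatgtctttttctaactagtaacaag
ARS1: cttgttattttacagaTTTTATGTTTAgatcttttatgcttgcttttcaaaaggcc
ARS305: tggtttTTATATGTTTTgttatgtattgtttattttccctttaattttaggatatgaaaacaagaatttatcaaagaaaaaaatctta
ARS607: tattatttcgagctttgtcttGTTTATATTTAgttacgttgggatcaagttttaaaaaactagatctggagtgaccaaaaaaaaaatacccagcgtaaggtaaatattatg
ARS603: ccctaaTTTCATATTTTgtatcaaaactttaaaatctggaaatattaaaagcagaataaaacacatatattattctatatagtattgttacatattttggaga
ARS317: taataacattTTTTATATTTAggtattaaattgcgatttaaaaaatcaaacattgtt
ARS209: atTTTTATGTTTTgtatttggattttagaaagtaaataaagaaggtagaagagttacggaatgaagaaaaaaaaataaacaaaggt
ARS1106: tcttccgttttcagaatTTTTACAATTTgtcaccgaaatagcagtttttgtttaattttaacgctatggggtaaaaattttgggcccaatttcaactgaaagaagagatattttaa
*ARS503*, *ARS1*, *ARS317* and *ARS209* carry an exact consensus match. *ARS1409* has 3 mismatches, the most found in any origin, and had a peak in every library. GC content of the whole features was 27.6% (*ARS503*) to 44.7% (*ARS1409*) in the first 5 and 15.8% to 30.2% in the last 7. Over the whole set, the median GC content was 35.0% at the 49 origins with a peak in any library, against 29.3% at the 303 without.

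The 8 lists held 988 to 1284 nuclear peaks each (median 1025), which covered 2.95% to 3.84% of the nuclear genome. The fragment pileup at each summit and the local background were recovered from the deposited values of each peak. The genome-wide background of a library was taken as the lowest local background recovered at any of its nuclear peaks. It was 4.97 to 6.93 fragments per base, and the lowest pileup of any called peak was 13 to 16 fragments, or 2.31 to 2.61 times that background. Where the local background exceeds the genome-wide one, as in the ribosomal DNA, the limit is higher. An origin without a peak is therefore one at which no signal passed the limit at that place, not one shown to be closed.

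Few origins carried a called peak. Of the 352 origins, 23 and 21 had a peak in the HPRT1R episome libraries, 22 and 19 in the HPRT1 episome libraries, 27 and 29 in the integrated HPRT1R libraries, and 22 and 21 in the integrated HPRT1 libraries. Over all libraries, 49 origins (13.9%) had a peak at least once, against 29.6% of 5914 intergenic regions without an ARS. A peak in all 8 libraries was found at 11 origins (3.13%), against 7.39% of the intergenic regions without an ARS. Those regions have a median length of 346 bp and so differ in size from origins. At the origins' own lengths, with the peaks of all libraries moved together along the genome, the mean was 11.0% for at least 1 library and 2.44% for all 8, both below the observed shares. No peak was called at 303 origins (86.1%) in any library. Of the 38 origins in between, 19 had a peak in 1 library, and 23 origins in all had a peak in at least 4. The median distance of an origin to the nearest summit was 2572 to 3407 bp in the 8 libraries.

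To ask whether origins met peaks more often than their number and length would give, all peaks of a library were moved together along the genome by every possible distance. Origins with a peak made up 5.40% to 8.24% of the set, with a mean of 6.53% ± 0.948 (SD, n = 8 libraries), against 5.34% to 6.89% in the mean over all shifts. The mean log2 ratio was 0.16 and the observed share was the higher in 7 of 8 libraries (exact two-sided sign-flip permutation test, p = 0.0156, where 0.0078 is the smallest value this test can give). The sign-flip tests here and below ask whether the 8 libraries share a direction, with the origins as a fixed set. They do not measure how the overlap varies between single shifts or with the choice of origins. The excess over shifts depended on how overlap was counted and on which origins were included. Counting an origin only where a summit fell inside it gave 4.23% ± 1.02, against 2.60% in shifts, a log2 ratio of 0.67 that was above 0 in 8 of 8 libraries (exact permutation test, p = 0.0078). It was 0.41 with peaks of a −log10 q of at least 5 and 0.27 for 300 bp around each middle (both p = 0.0078, exact permutation tests), and 0.22 with the same number of peaks per library (exact permutation p = 0.0156). Requiring at least 50% of the origin to be covered gave −0.048 (exact permutation p = 0.867), with 7 to 13 such origins per library. Origins near chromosome ends or in repeated sequence also mattered. Without the 40 origins within 20 kb of an end the mean log2 ratio was −0.085 (p = 0.125, same exact permutation test), and without the repeated origins it was −0.14 (p = 0.0547). Without both, 3.90% to 6.17% of 308 origins had a peak, against 5.09% to 6.60% in shifts, a mean log2 ratio of −0.28 (exact permutation test, p = 0.0078), lower in 8 of 8 libraries. Summits inside these 308 origins were found in 2.56% ± 0.704, against 2.35% in shifts, a log2 ratio of 0.081 (exact permutation p = 0.508). The settings without repeated origins were chosen after the data had been seen.

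**Figure D1:**
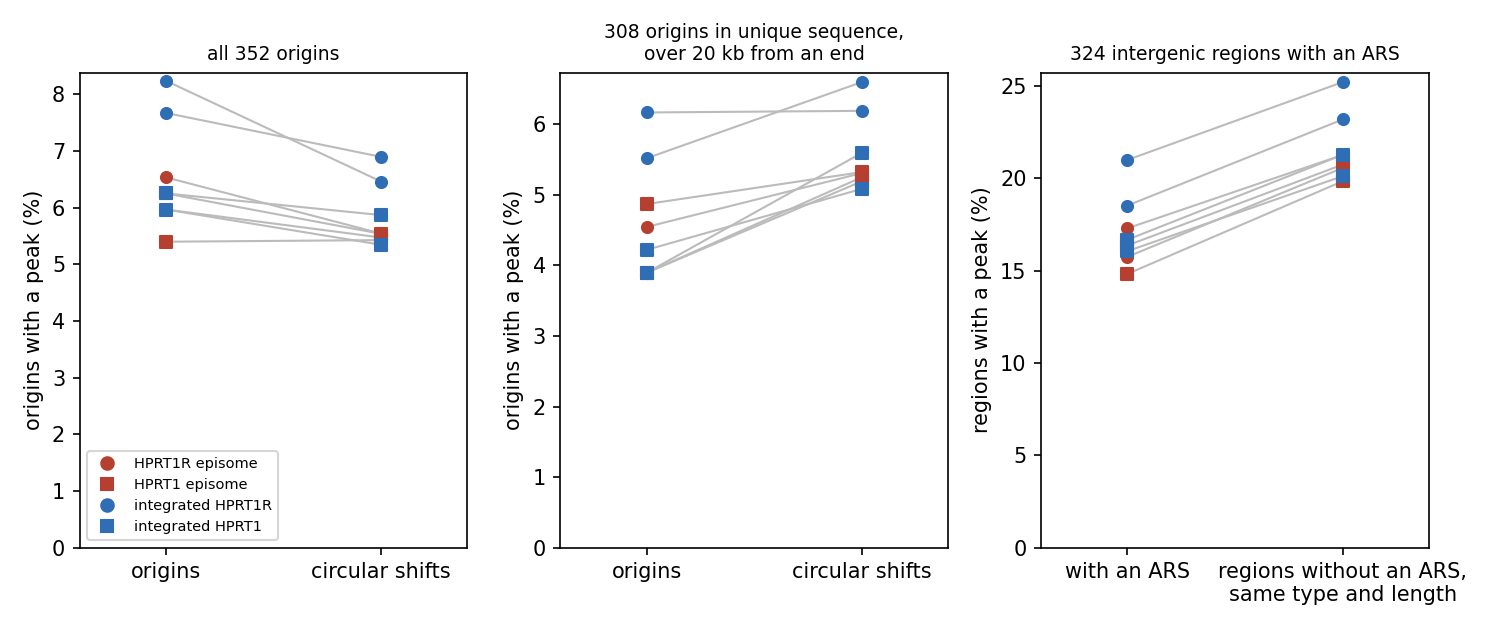
Shares of features in percent in the 8 libraries, 1 line per library, with colour giving context and symbol giving the locus; the feature with an ARS stands left of what it is set against in each panel. The left panel sets all 352 origins against circular shifts (6.53% against 5.82% on average), the middle panel does so for the 308 origins away from ends and repeats, and the right panel sets 324 intergenic regions with an ARS against regions without one of the same type and length, where the share with an ARS is the lower one in all 8 libraries.

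The shares differed with location. Of the 40 origins within 20 kb of an end, 17 (42.5%) had a peak in at least 1 library, and their mean share per library was 16.2% ± 3.27 (SD over libraries), against 7.68% in shifts. Among the 312 origins farther in, 32 (10.3%) had a peak, with a mean share of 5.29% against 5.58%. All 8 terminal origins had a peak at least once. The 24 repeated origins included 11 with a peak (45.8%), at a mean of 25% ± 3.86 per library, against 8.02% in shifts. Near a tRNA gene, 9 of 14 origins had a peak (64.3%), at 34.8% ± 8.04 per library against 5.69%. When ends, repeats and tRNA neighbours were all set aside, 20 of 294 origins had a peak (6.80%), 3 of them in all 8 libraries, and the mean share was 3.19% ± 0.679 against 5.56% in shifts. These subsets are described without a test, since they overlap and were chosen with results known.

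The number of mismatches to the ARS consensus did not order the shares. Origins with an exact consensus match had a peak in 6.35% of cases per library, against 5.51% in shifts, those with 1 mismatch in 4.47% against 5.85%, and those with 2 or 3 mismatches in 13.9% against 6.43%. The last class includes the repeated *ARS810* and *ARS1409*, into which a tRNA gene reaches, and mismatch number was not separated from location. Origins annotated as putative, with a median length of 471 bp, had a peak in 18.9% of cases, against 7.62% in shifts, and the other 299, with a median of 237 bp, in 4.35% against 5.50%. The longest 88 origins had a peak in 17.0% of cases, against 8.61% in shifts, while the next 86 by length had one in 1.74%, against 5.55%. By flanking genes, the share was 35.9% at terminal origins (7.06% in shifts), 10% at divergent (6.02%), 5.73% at tandem (5.69%) and 4.87% at convergent pairs (5.34%). Inside genes it was 0.658%, against 8.57% in shifts, with 1 of 19 such origins marked in any library, against 13.9% of all origins.

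Peaks over origins were wider than other peaks, with library medians of 298 to 441 bp against 279.5 to 315 bp. They shared their ground with other features. A tRNA gene was covered by a median of 20.3% of them (range over libraries 14.3% to 27.3%), against 12.5% of the other peaks. They lay within 20 kb of a chromosome end in 28.6% of cases (22.7% to 33.3%), against 5.98%. The 500 bp upstream of a coding gene was touched by 69.8% of them, against 78.9% of the other peaks. Only 4.55% (0% to 13.0%, or 0 to 3 peaks per library) of peaks over origins met none of these, against 12.4%. A wider peak more easily meets an origin or any of these features, and these shares were not matched for width.

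The shares were then compared with intergenic regions of the same kind, because peaks in yeast sit mostly between genes. A region was counted as holding an ARS where one overlapped it by at least 1 bp. Of 324 intergenic regions that hold an ARS, 56 and 51 had a peak in the HPRT1R episome libraries, 53 and 48 in the HPRT1 episome libraries, 68 and 60 in the integrated HPRT1R libraries, and 54 and 52 in the integrated HPRT1 libraries. Their mean share was 17.1% ± 1.93, against 21.5% ± 1.81 in regions without an ARS weighted to the same mix of gene orientation and length (SD, n = 8 libraries). The mean log2 ratio was −0.34, with the region holding an ARS lower in 8 of 8 libraries (exact sign-flip permutation test, p = 0.0078). Over all libraries, 28.4% of regions with an ARS had a peak at least once, against 34.2% after weighting, and 7.10% had one in all 8, against 11.5%. Without the weighting the regions with an ARS, whose median length of 617.5 bp exceeds the 346 bp of the others, gave 17.1% against 16.7% and a log2 ratio of 0.028 (p = 0.125, same exact permutation test). When only gaps between protein-coding genes were used, the log2 ratio was −0.12 (exact permutation p = 0.0078).

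The deficit was not even across region types. Between divergent genes from 500 to under 1000 bp apart, 5.36% ± 5.05 of 14 regions with an ARS had a peak, against 42.8% ± 3.38 of 542 regions without one. In tandem regions of 250 to under 500 bp the shares were 4.39% ± 2.48 of 37 regions and 10.4% ± 1.53 of 1375, and in tandem regions of 500 to under 1000 bp they were 15.7% ± 2.42 of 54 and 26.8% ± 2.76 of 642. The order was the other one in some classes. Tandem regions of 1000 bp or more had a peak in 35.9% ± 6.22 of 56 cases with an ARS and in 32.5% ± 2.85 of 249 without, whereas divergent regions of that length had one in 43.8% ± 4.87 of 36 and 50.3% ± 3.63 of 226. The order was also turned in convergent regions under 250 bp (8.09% of 34 and 3.33% of 889) and, narrowly, of 250 to under 500 bp (3.69% of 44 and 3.51% of 460). The same held in divergent regions of 250 to under 500 bp (37.5% of 3 and 16.8% of 532). With an ARS the share was lower in convergent regions of 500 to under 1000 bp (9.09% of 22 and 10.4% of 112) and of 1000 bp or more (8.33% of 12 and 18.8% of 36). Convergent regions, which hold no promoter of their flanking genes, rarely had a peak with an ARS (6.58% ± 0.664 of 112) or without (4.28% ± 0.554 of 1497). SDs here are over 8 libraries that share the same regions, and the small classes rest on few origins.

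**Figure D2:**
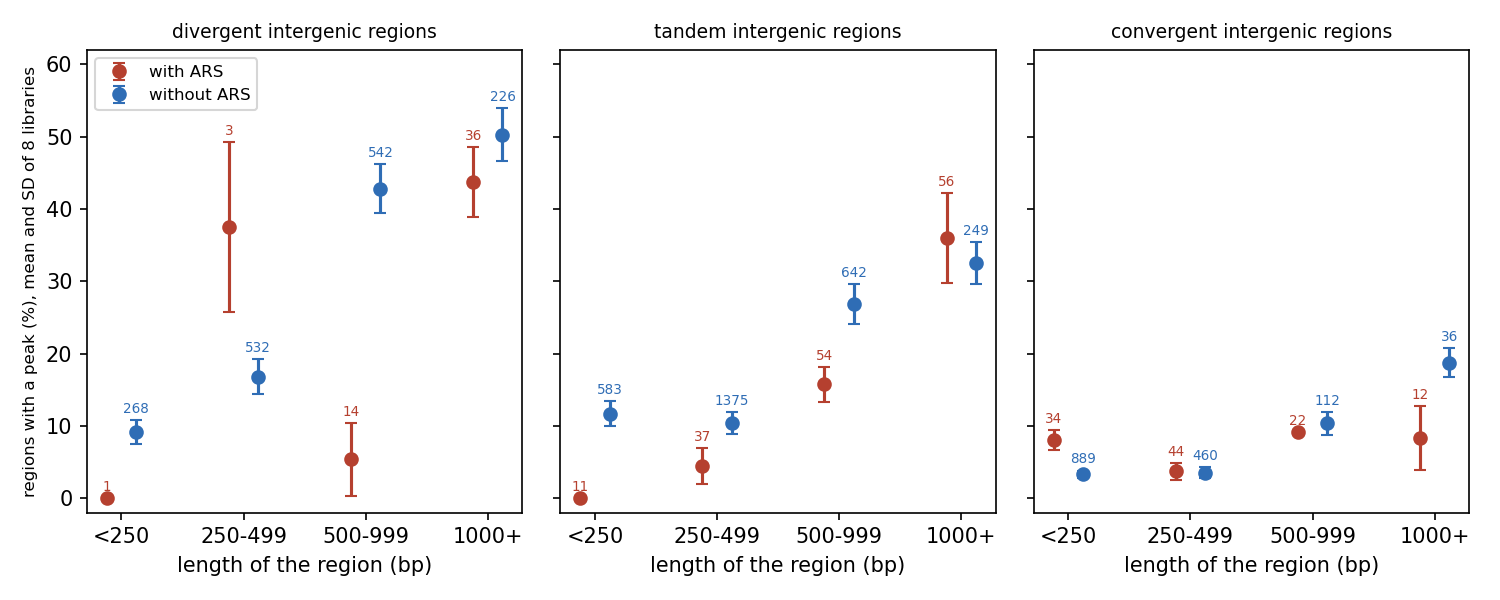
Share of intergenic regions with a peak in percent (points: mean of 8 libraries, bars: SD) by length of the region in bp, for regions with an ARS left of regions without one, in divergent, tandem and convergent panels. The widest gap is at divergent regions of 500 to under 1000 bp (5.36% against 42.8%), and tandem regions of 1000 bp or more show the other order (35.9% against 32.5%).

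Summits were more frequent inside origins than in shifts over the whole genome, as given above. Within the intergenic regions, their share inside the ARS was below its share of the length, except in integrated HPRT1R replicate 2. Each library had 33 to 56 summits in the 324 regions, of which 6 to 15 lay inside the ARS. These were 30.6% in integrated HPRT1R replicate 2 and 16.2% to 22.5% in the other libraries. The ARS made up 25.9% of the length, and the difference was not tested. Summit density within 100 bp of the middle of an origin was 0.135 ± 0.0252 summits per kb, against 0.294 ± 0.0347 at the middle of intergenic regions without an ARS and 0.0886 over the nuclear genome. These densities were not matched for gene orientation or length. For the 308 origins away from ends and repeats the density at the middle was 0.0791 ± 0.0280. At intergenic regions without an ARS it was highest between divergent genes (0.578 ± 0.0573) and lowest between convergent ones (0.0539 ± 0.0155).

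**Figure D3:**
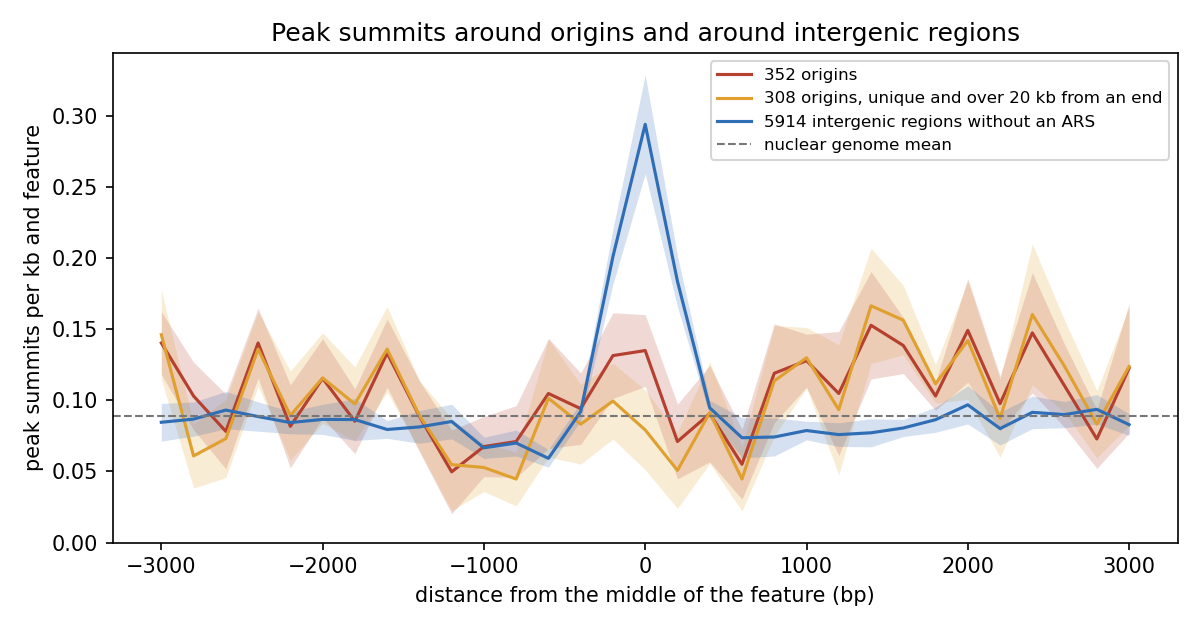
Peak summits per kb and feature against distance in bp from the middle of the feature, in 200-bp bins, as the mean of 8 libraries with a band of 1 SD. The sets of features were not matched for gene orientation or length. Intergenic regions without an ARS rise at their middle (0.294), whereas the middle of all origins (0.135) is no higher than some bins 1400 to 2400 bp away (up to 0.153) and that of origins away from ends and repeats is at 0.0791; the dashed line is the nuclear genome mean (0.0886).

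With each origin counted once per library, the summit lay inside the feature in 119 of 184 cases of a peak over an origin (64.7%). The share of such peaks with the summit within 250 bp of the middle was 60% to 81.0%, against 65.0% to 66.7% in shifts, a mean difference of 3.81 percentage points (exact sign-flip permutation test, p = 0.0859). At a distance of 100 bp the difference was 9.86 points (p = 0.0078), and without origins near chromosome ends at 250 bp it was −2.77 points (p = 0.508, both exact permutation tests). Leaving out HPRT1 episome replicate 2 gave 5.11 points (exact permutation p = 0.0156). That library had the lowest share and was the only one below its shift value. Without it all remaining libraries share a direction, so this p is the smallest the test can then give. With any other single library left out, p was 0.0938 to 0.172 (exact permutation tests).

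Peaks over origins were higher than other peaks. Their median summit pileup was 4.44 and 4.81 times the genome-wide background in the HPRT1R episome libraries, 4.43 and 3.82 times in the HPRT1 episome libraries, 4.80 and 5.63 times in the integrated HPRT1R libraries, and 4.63 and 5.50 times in the integrated HPRT1 libraries. The other nuclear peaks had medians of 3.53 to 4.63 times. The mean log2 ratio was 0.23, above 0 in 8 of 8 libraries (exact sign-flip permutation test, p = 0.0078). Without the repeated origins, a setting chosen after the data were seen, the ratio was 0.11 (exact permutation p = 0.0078). A wider peak meets more features, and width was not matched in this comparison.

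The origin with the highest mean log2 fold enrichment was *ARS810*, at 2.70 ± 0.14 (SD, n = 8), and its twin *ARS811* had 2.57 ± 0.23. Both lie in the tandem copies of the *CUP1* repeat on chromosome VIII, where *CUP1* encodes the copper-binding metallothionein. Their sequences are identical over all 466 bases and start 1998 bp apart, so a read from one cannot be told from a read of the other or of copies that the assembly does not hold. *ARS810* (VIII, 212720 to 213185) had summit pileups of 50, 47, 50 and 70 fragments in the episome libraries (HPRT1R 1 and 2, HPRT1 1 and 2) and 51, 34, 56 and 55 in the integrated libraries in the same order, at 5.73- to 8.10-fold enrichment. *ARS811* had 56, 39, 64 and 61 fragments in the episome libraries and 31, 42, 54 and 50 in the integrated ones, at 4.88- to 7.93-fold. The context ranges overlap at both, and the summit of *ARS810* stayed within 40.5 bp to the left and 21.5 bp to the right of its middle.

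Subtelomeric origins made up 4 of the 11 with a peak in every library. *ARS736* (VII, 1083795 to 1084863) lies between *COS6*, of a subtelomeric membrane protein family, and *YRF1-3*, which encodes a helicase of the Y′ elements. Its mean log2 fold enrichment was 2.65 ± 0.20, and its pileups were 46, 51, 41 and 43 fragments in the episome libraries and 51, 48, 49 and 36 in the integrated libraries. *ARS400* (IV, 137 to 1392), the longest origin with a peak in all 8, is terminal and next to *COS7*. It had 29, 33, 28 and 37 fragments in the episome libraries and 42, 33, 40 and 38 in the integrated ones, and relative to the local background its enrichment was 4.30- to 4.98-fold in the episome libraries and 5.33- to 6.70-fold in the integrated ones, without overlap. The limma test of that difference, given with the contexts, did not pass. *ARS1001* (X, 65 to 577), the eleventh such origin and named after its values were seen, is fully repeated and had 23, 30, 19 and 31 fragments in the episome libraries and 21, 22, 32 and 25 in the integrated ones. *ARS503* (V, 6378 to 6453), the shortest of them at 76 bp, sits between *YEL075C* and *YEL073C*. It had 32, 32, 30 and 24 fragments in the episome libraries and 34, 29, 29 and 35 in the integrated libraries, with the summit inside the feature in 3 of 8.

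3 further origins lay beside genes that RNA polymerase III transcribes. *ARS519* (V, 442416 to 442735) neighbours *SCR1*, the RNA of the signal recognition particle, and had 35, 32, 38 and 43 fragments in the episome libraries and 37, 51, 41 and 43 in the integrated ones. *ARS915* (IX, 248396 to 248850) neighbours the tRNA gene *SUP17*, and had 24, 36, 33 and 30 fragments in the episome libraries and 34, 47, 39 and 46 in the integrated ones. In neither was any summit inside the origin: the median summit lay 325 bp to the left of the middle at *ARS519* and 616.5 bp to the right at *ARS915*. At *ARS1409* (XIV, 96247 to 96463), into which the tRNA gene *SUF6* reaches, the pileups were 27, 27, 26 and 34 fragments in the episome libraries and 24, 35, 38 and 33 in the integrated ones. Its summit stood 66 to 72 bp left of the middle in every library, the narrowest range among the 11 origins with a peak in all libraries.

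2 origins with a peak in every library had none of these neighbours. *ARS1016* (X, 454584 to 455555) lies between the divergent *TDH2*, a glyceraldehyde-3-phosphate dehydrogenase gene, and *MET3*, the ATP sulfurylase gene. It had 31, 22, 24 and 28 fragments in the episome libraries and 27, 31, 28 and 31 in the integrated ones, at 3.37- to 5.36-fold enrichment. *ARS1115* (XI, 462699 to 463742), between *FPT1* and *PRY2*, had 25, 31, 27 and 26 fragments in the episome libraries and 25, 30, 30 and 23 in the integrated ones, with the summit of its highest peak 160.5 to 392.5 bp right of the middle. In HPRT1 episome replicate 2 a second, lower peak had its summit 271.5 bp to the left. Neither is repeated or near a chromosome end. Across the 11 origins, the summit was inside the ARS in all 8 libraries for 7, in some for *ARS503* and *ARS811*, and in none for *ARS519* and *ARS915*.

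**Figure D4:**
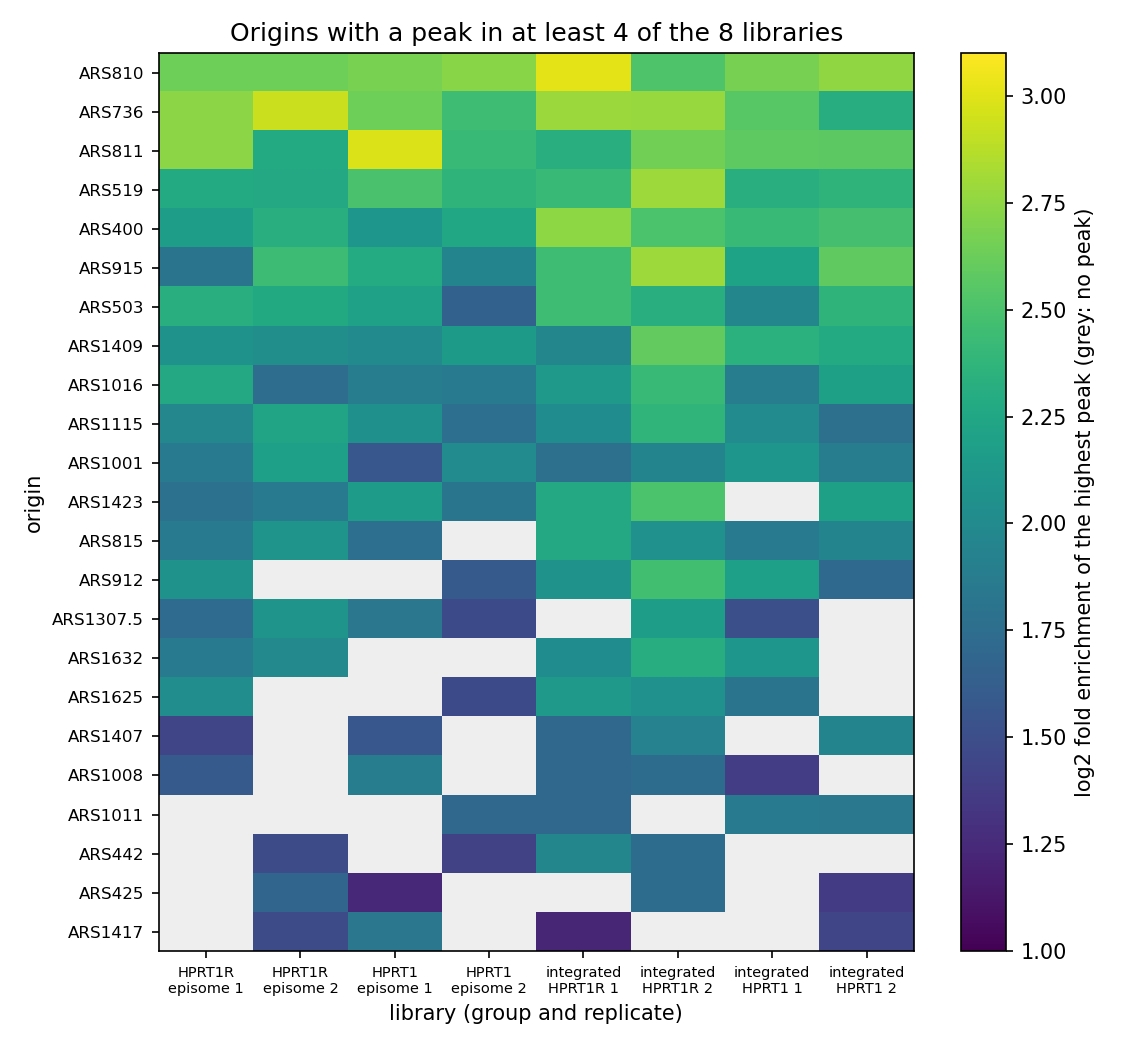
Log2 fold enrichment of the highest peak over each of the 23 origins with a peak in at least 4 libraries (rows, ordered by number of libraries and mean) in each of the 8 libraries (columns); grey is no called peak. The top 11 rows are filled in every library and the lower rows lose libraries of both contexts.

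Just short of every library were *ARS1423*, with a tRNA gene 154.5 bp from its middle, which lacked a peak only in integrated HPRT1 replicate 1, and *ARS815*, beside the hexose transporter gene *HXT5*, which lacked one only in HPRT1 episome replicate 2. *ARS912* and *ARS1307.5* had a peak in 6 libraries. *ARS1307.5* lies between *HUG1* and *SML1*, whose products both inhibit ribonucleotide reductase. These 4 origins were named after their values were seen.

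Of 19 origins well known from earlier work, 17 had no peak in any library, close to the 86.1% of all origins without one. They include the first one isolated, *ARS1* (also called *ARS416*, beside *TRP1*), with its nearest summit a median of 2696.5 bp away over the 8 libraries. The early-firing origins *ARS305*, *ARS306*, *ARS307*, *ARS606* and *ARS607* had none, with nearest summits 3208.5 to 10956 bp away. The late-firing *ARS522* (known as *ARS501*), *ARS603* and *ARS609* also had none, at 1633.5 to 5667.5 bp. At the silent mating cassettes, *ARS301*, *ARS302*, *ARS303* and *ARS320* by *HML* had their nearest summit 8723 to 10435 bp away, whereas *ARS318* at *HMR*, also without a peak, had one 712.5 bp away. *ARS317*, part of the HMR-E silencer, and *ARS209*, the histone H4 origin used in many vectors, were 2907 and 1027.5 bp from the nearest summit.

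The 2 exceptions were seen in integrated libraries. *ARS315*, an early origin, had a peak of 3.33-fold enrichment in integrated HPRT1R replicate 1. *ARS1200-2* in the ribosomal DNA had one in both integrated HPRT1 libraries, with pileups of 987 and 876 fragments at only 1.22- and 1.27-fold enrichment over the local background of this tandem repeat. Near the integration site on chromosome XI, *ARS1106*, *ARS1125* and *ARS1126* lie within 50 kb and none had a peak, the state of 86.1% of all origins.

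The number of origins with a peak was compared between contexts. Episome libraries had 21.3 ± 1.71 such origins and integrated libraries 24.8 ± 3.86 (SD, n = 4 each), a difference of −3.5 (exact permutation within locus, p = 0.167, with 0.0556 the smallest value possible). The integrated HPRT1R clones had the highest counts, at 28 ± 1.41, and they were also the libraries with the most peaks, 1284 and 1171. No origin was marked in the 4 libraries of one context while unmarked in the other, a pattern seen in 0.38% of 1840 merged peak regions. *ARS724* came nearest, with a peak in 0 episome and 3 integrated libraries at 2.73- to 4.86-fold enrichment, and was named after its values were seen.

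Fold enrichment was compared between contexts with limma in the 500 merged regions with a peak in every library. Of these, 23 lay over an origin, although the peak that did so need not be the highest of the region, nor present in each library. None of the 23 passed an adjusted p of 0.05 in limma, against 0.6% of the 500, and 4 of the 23 had an unadjusted p under 0.05, beside 18.6% of the 500. The origin regions had a median log2 difference of −0.16 (episome minus integrated), and the other 477 a median of −0.14. The lowest was −0.43 in the region over *ARS523* (SE 0.13, limma adjusted p = 0.126), although a peak met *ARS523* itself in only 1 library. Next were −0.39 at *ARS915* (SE 0.16) and −0.32 at *ARS400* (SE 0.12, limma adjusted p = 0.200), both with a peak over the origin in all 8. The highest was 0.14 at *ARS811*. Only 2 of the 23 were above 0, as were 16.6% of all 500. After each library was centred on its median, 11 of 23 were above 0, as were 51.6% of all regions, and the origin median was −0.014. No origin region passed the test of whether the context difference varied with the locus (interaction term, smallest limma adjusted p = 0.863).

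**Figure D5:**
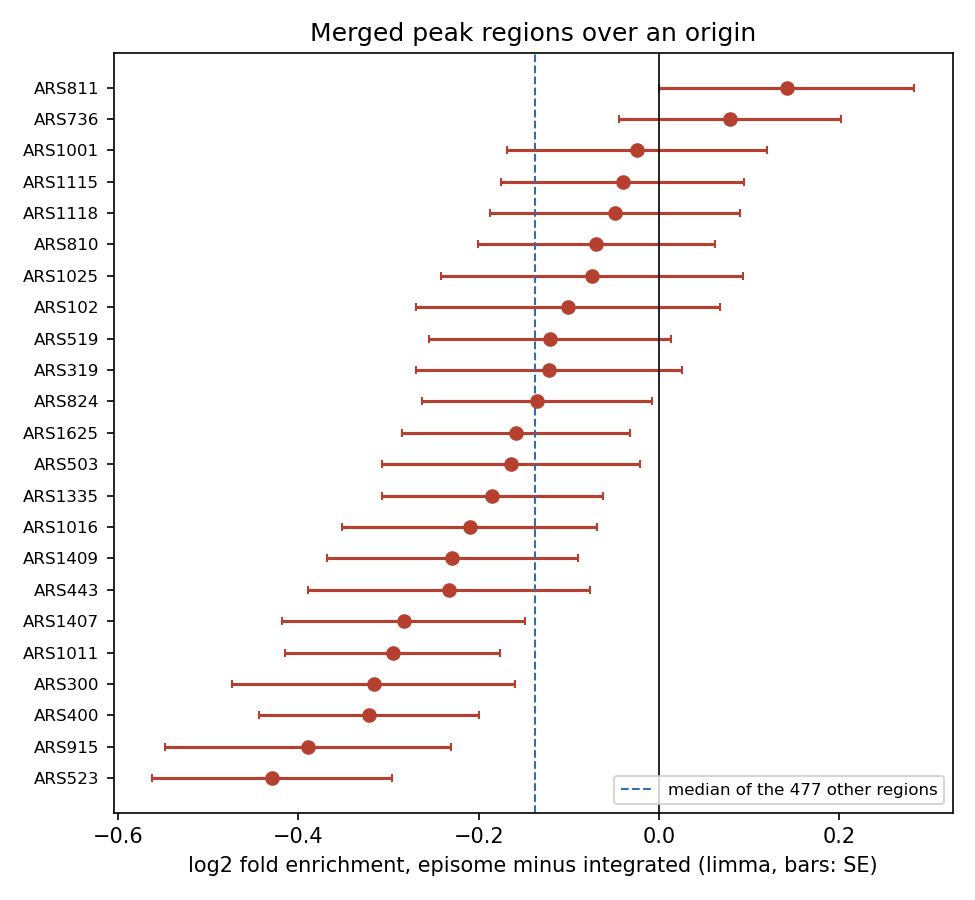
Log2 fold enrichment difference, episome minus integrated, for the 23 merged peak regions over an origin, ordered by value (points: limma estimate, bars: SE). Each value rests on the highest peak of the region in each library, which need not overlap the origin. The values run between −0.43 (*ARS523*) and 0.14 (*ARS811*) around the dashed median of the 477 other regions (−0.14), and none passed an adjusted p of 0.05.

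Genes for the proteins that act at origins were examined through the 500 bp upstream of their coding start. All 30 genes of a list covering ORC, the helicase and its loaders, the firing factors and their regulators were found. An upstream peak was called at least once for 8 of them (26.7%), against 36.3% of all 6002 protein-coding genes, and in all 8 libraries for 3 (10%), against 9.23%. The 3 were the helicase loaders *CDC6* and *TAH11* (Cdt1) and the helicase subunit *MCM7*. *MCM7* had 3.77-, 4.84-, 3.70- and 3.66-fold enrichment in the episome libraries and 3.74-, 5.19-, 4.16- and 2.86-fold in the integrated ones. *CDC6* had 3.03- to 3.66-fold in the episome and 3.12- to 4.52-fold in the integrated libraries, so both ranges overlap between contexts. *ABF1*, a general regulatory factor that binds some origins, and *MCM3* had a peak in 7 libraries, the forkhead genes *FKH2* and *FKH1*, whose products influence origin timing, in 4 and 3, and *ORC2* in 1. The other 22 genes, among them the other 5 ORC subunits, had none.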

How the data were processed

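ATAC-seq libraries of 8 yeast clones were used. Per the submitters' processing notes and the study's methods, the authors aligned paired-end reads with Bowtie2 2.2.9 to sacCer3 extended by the synthetic locus, and called peaks per library with MACS2 2.1.0 on whole fragments with duplicates kept, no control and no pooling. For each peak the deposited lists hold the authors' fold enrichment (a ratio of summit to background, the larger of a local and a genome-wide one), p-value as −log10, q-value as −log10, and summit position. No read totals are in the lists, so depth is seen only through the recovered pileups and no sampling intervals are given. By Bowtie2's default, a read that aligns equally well to several places is put at 1 of them, so peaks in repeats may belong to another copy.

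Pileup and background were solved from the ratio and p-value (99.3% to 99.6% of nuclear peaks were matched within 0.001 in −log10 p). Both homology arms match the reference used, and no peak passes a chromosome end. Expected values are means over every 1-bp circular shift. Sign-flip tests treat the 8 clones as independent and the origins as a fixed set, and the clones of a strain share a genotype. Regions without an ARS were weighted by orientation and length (limits 250, 500 and 1000 bp). For limma 3.58.1 (R 4.3.3), log2 fold enrichment was fitted over merged regions with terms for locus and context and Benjamini-Hochberg adjustment over the 500 regions. Python 3.11.15, NumPy 2.4.6, SciPy 1.17.1, pandas 2.3.3 and matplotlib 3.10.9 did the rest, and each test was checked on simulated data with known answers. Named origins were the 10 with a peak in all libraries and the highest mean log2 fold enrichment, those that differed by context, 19 known from the literature, those within 50 kb of the integration site and the longest and shortest with a peak in all libraries; others are marked. The lists of named origins and of replication genes were chosen with earlier results of these data known. Alternatives were a −log10 q of at least 5, the same number of peaks per library (988), other overlaps and distances, no chromosome ends or repeats, no weighting, median centring, a replicate block and each replicate left out. Replicate numbers did not pair the clones.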

Additional observations from a re-analysis of the deposited data

Results flagged for a closer look

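Of 28 groups of library values tested for 1 library far from the others, 5 had one, and chance alone passes some groups of this kind. *ARS519* had a log2 fold enrichment of 2.79 in integrated HPRT1R replicate 2, the highest of its 8 libraries, and *ARS810* had 3.02 in integrated HPRT1R replicate 1. The other 3 concern the summit: it lay 221 bp right of the middle of *ARS736* in HPRT1 episome replicate 2, 704.5 bp left of the middle of *ARS811* in the same library (−704.5 bp), and 160.5 bp right of the middle of *ARS1115* in HPRT1R episome replicate 2, each apart from the other libraries.

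The mitochondrial origins were in no comparison. In each library 1 of the 8 mitochondrial origins had a peak, and it was always *ORI6* (45227 to 47927), the longest of them.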

How the results depend on the processing

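The excess of origins with a peak over shifts (log2 ratio 0.16) was 0.67 with the summit inside the origin, 0.41 with a −log10 q of at least 5, 0.27 for 300 bp around the middle and 0.22 with the same number of peaks. It turned negative without origins within 20 kb of an end (−0.085), with at least 50% of the origin covered (−0.048), without repeated origins (−0.14) and without both (−0.28), where the summit-inside ratio was 0.081 and no longer passed; the settings without repeats were chosen after the data were seen. Leaving out 1 library gave 0.13 to 0.18. The lower share in regions with an ARS (−0.34) kept its direction and call in 5 of 6 alternatives. Its size varied, from −0.54 without chromosome ends to −0.12 with gaps between protein-coding genes only. Without weighting it became 0.028. Leaving out 1 library gave −0.35 to −0.33. Summits near the middle (3.81 points) passed the threshold with a −log10 q of at least 5 (8.46) and at 100 bp (9.86), and reversed without ends (−2.77). Leaving out 1 library gave 2.22 to 5.11. Only the value without HPRT1 episome replicate 2 (5.11), the sole library below its shift value, passed among these. The pileup ratio (0.23) kept its direction and call in all 6 alternatives (0.11 to 0.24) and with any library left out (0.20 to 0.25). The context difference in origins (−3.5) was −3.5 to −2.5 in 4 alternatives and −4.25 to −2.75 with a library left out. With same-numbered clones taken as 4 pairs, the mean difference in origins was −3.5 (exact sign-flip permutation p = 0.25, with 0.125 the smallest value possible). Limma with a term for replicate number called 0 of 23 origin regions and 4 of 500 in all. To see whether same-numbered clones deviated together, replicate 1 minus replicate 2 was taken within each group in the 500 regions. Correlations of these differences between groups ran between −0.0531 and 0.0502, none over 0.1. The count of origin regions called by limma was 0 in every alternative and with any library left out. Leaving out 1 library moved the 3 calls among all 500 regions to 0 for 5 of the 8 libraries. No called peak had a pileup under 13 to 16 fragments, so smaller openings at origins would not be seen, and peaks in repeats cannot be assigned to a copy.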
